A study of Mus musculus with 40 samples.

Results

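The 9 genes described here are receptors of the tumour necrosis factor (TNF) receptor superfamily: Tnfrsf4, Tnfrsf9, Tnfrsf18, Tnfrsf8, Tnfrsf1b, Cd27, Tnfrsf25, Fas and Tnfrsf1a. They were chosen by gene name, with earlier results of these data known, and all 9 were found among the 55421 genes of the count table. Their mRNA was counted by 3′ sequencing of CD4+ T cells sorted by a Foxp3-Thy1.1 reporter. Regulatory T cells (Treg) carried the reporter signal and conventional T cells (Tconv) lacked it, and each library held 2000 sorted cells. The mice were wild type and perfused, and tissue digestion is listed for every sample. Age, sex and which libraries share an animal are not given in the sources used here, so SD, SE and p-values measure the spread between these libraries. Treg came from 10 sources with 3 libraries each. The 6 tissues were kidney, liver, lung, pancreas and, from the gut, the lamina propria (LPL, its lymphocytes) and the epithelial layer (IEL, intraepithelial lymphocytes). The lymphoid side was lymph node, spleen and blood, and Peyer's patch was kept apart from both. Tconv came from the same 10 sources with 1 library each, which makes 30 Treg and 10 Tconv libraries.

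Receptors of this family sit in the cell membrane and bind ligands that are mostly trimers on neighbouring cells. Tnfrsf4 (OX40), Tnfrsf9 (4-1BB), Tnfrsf18 (GITR), Tnfrsf8 (CD30), Cd27 and Tnfrsf1b (TNF receptor 2) recruit TRAF adaptors and act as costimulatory receptors that feed NF-kB signalling. Tnfrsf1a (TNF receptor 1), Fas and Tnfrsf25 (DR3) carry a death domain, through which Fas can start apoptosis, while Tnfrsf25, the receptor of the ligand TL1A, can also costimulate T cells. In mice, OX40, GITR, TNF receptor 2 and DR3 are well known on Treg.

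Of the 9 genes, 6 lie on mouse chromosome 4, 2 on chromosome 6 and Fas on chromosome 19. Tnfrsf4 (ENSMUSG00000029075.6, mm10 chr4:156013843-156016612, plus strand) and Tnfrsf18 (ENSMUSG00000041954.18, chr4:156026164-156028895, plus strand) are 9.6 kb apart, with only the predicted genes Gm37090 and Gm25982 between them. Tnfrsf1b (ENSMUSG00000028599.10, chr4:145213463-145246870, minus strand) and Tnfrsf8 (ENSMUSG00000028602.12, chr4:145267137-145315164, minus strand) are 20.3 kb apart with no gene between. Tnfrsf9 is ENSMUSG00000028965.13 (chr4:150914562-150946102, plus strand) and Tnfrsf25 is ENSMUSG00000024793.14 (chr4:152115934-152120119, plus strand). Cd27 (ENSMUSG00000030336.14, chr6:125232622-125237010, minus strand) and Tnfrsf1a (ENSMUSG00000030341.17, chr6:125349362-125362484, plus strand) are 112.4 kb apart. Fas is ENSMUSG00000024778.13 (chr19:34290666-34327772, plus strand). Whether counting used strand is not given in the sources used here. In shared exons, reads of Tnfrsf9, Tnfrsf18 and Cd27 can therefore not be told apart from those of opposite-strand genes whose spans overlap theirs. These genes are Camta1 (6510 counts over all libraries, against 310437 for Tnfrsf9), Gm16008 (3739, against 224160 for Tnfrsf18) and Vamp1 (22517, against 203269 for Cd27). On the same strand, Gm27818 overlaps Fas (198 counts, against 43316) and Mir8113 overlaps Cd27 (0 counts). Overlap was read from whole gene spans, and whether exons are shared was not checked.

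The promoters of the 5 receptors that were higher in tissue Treg than in lymphoid Treg are shown so that their sequences can be set side by side. Each window runs from 250 bases before to 50 bases after a RefSeq transcription start (GRCm38.p6), and capitals mark matches to the motifs named below. The windows are chr4:156013445-156013744 (plus strand) for Tnfrsf4, chr4:156026072-156026371 (plus) for Tnfrsf18, chr4:150927749-150928048 (plus, the later of 2 listed starts) for Tnfrsf9, chr4:145315115-145315414 (minus) for Tnfrsf8 and chr4:145246821-145247120 (minus) for Tnfrsf1b.
Tnfrsf4: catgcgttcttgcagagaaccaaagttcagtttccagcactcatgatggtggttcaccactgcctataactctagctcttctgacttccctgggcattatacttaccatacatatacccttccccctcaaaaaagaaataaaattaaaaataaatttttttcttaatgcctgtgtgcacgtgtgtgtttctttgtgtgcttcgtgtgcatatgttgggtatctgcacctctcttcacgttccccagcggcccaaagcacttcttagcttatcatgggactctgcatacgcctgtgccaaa
Tnfrsf18: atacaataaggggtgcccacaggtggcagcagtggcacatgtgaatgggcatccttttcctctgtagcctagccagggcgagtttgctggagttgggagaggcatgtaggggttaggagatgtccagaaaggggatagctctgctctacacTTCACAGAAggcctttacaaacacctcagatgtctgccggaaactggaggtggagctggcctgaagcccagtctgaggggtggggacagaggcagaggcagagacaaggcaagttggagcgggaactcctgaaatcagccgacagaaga
Tnfrsf9: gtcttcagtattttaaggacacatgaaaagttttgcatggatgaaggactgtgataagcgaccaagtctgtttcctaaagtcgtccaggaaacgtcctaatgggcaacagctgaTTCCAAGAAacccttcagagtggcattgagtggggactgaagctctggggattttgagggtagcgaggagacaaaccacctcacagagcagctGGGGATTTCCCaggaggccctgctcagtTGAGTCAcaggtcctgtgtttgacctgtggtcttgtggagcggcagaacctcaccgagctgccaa
Tnfrsf8: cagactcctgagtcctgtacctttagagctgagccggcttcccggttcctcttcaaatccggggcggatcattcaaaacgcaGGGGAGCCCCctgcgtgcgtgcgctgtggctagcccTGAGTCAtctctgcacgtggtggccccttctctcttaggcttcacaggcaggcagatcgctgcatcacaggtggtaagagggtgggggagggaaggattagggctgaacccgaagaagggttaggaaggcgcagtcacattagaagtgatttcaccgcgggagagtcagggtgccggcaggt
Tnfrsf1b: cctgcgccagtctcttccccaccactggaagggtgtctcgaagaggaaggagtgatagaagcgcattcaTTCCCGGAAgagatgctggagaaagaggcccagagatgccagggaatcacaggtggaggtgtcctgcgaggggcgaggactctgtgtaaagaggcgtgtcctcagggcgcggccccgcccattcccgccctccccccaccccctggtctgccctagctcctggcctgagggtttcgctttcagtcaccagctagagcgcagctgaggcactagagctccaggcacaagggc

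Both strands of 11 windows of the 9 genes were searched for NF-kB (by its consensus), AP-1 (TGANTCA), STAT (TTCNNNGAA), forkhead (TGTTTAC) and CRE (TGACGTCA) motifs. The later Tnfrsf9 window, the one shown, held 2 overlapping NF-kB matches that together span bases -43 to -33 from the start. It also held an AP-1 match (TGAGTCA) at -15 and a STAT match at -136. The window of the earlier Tnfrsf9 start (chr4:150919905-150920204) held no match. The Tnfrsf8 window held an NF-kB match at -168 and an AP-1 match at -132. Fas, which was not among the receptors higher in tissue, also held an AP-1 match, at -211. STAT matches stood in 1 window each of 6 genes (Tnfrsf9, Tnfrsf18, Tnfrsf1a, Tnfrsf1b, Tnfrsf25 and Fas). Of the 2 Tnfrsf25 windows only the later held it, and the earlier held no match. No motif matched in the windows of Tnfrsf4 and Cd27, and forkhead and CRE motifs matched in none of the 11. Among 32851 windows of all genes, 4.51% held the NF-kB motif, 7.81% AP-1, 8.30% STAT, 3.65% forkhead and 1.79% CRE. A match describes letters in this window and shows no binding.

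Libraries held 12197980 to 28823493 counts. Foxp3, the transcription factor that defines Treg, ran from 68.3 to 310 CPM in the 30 Treg libraries, against 0.162 to 6.76 CPM in the 10 Tconv libraries, so no library went against its label. Lymph node Treg replicates 10 and 7 were the lowest of the Treg in Foxp3 (68.3 and 73.5 CPM). CPM is a gene's count divided by the library total times its TMM factor and scaled to 1000000. RNA of other cells was present in places. Summed acinar markers were 18059 to 102688 CPM in pancreas Treg, against 1.52 to 15.9 CPM in lymphoid Treg. Summed kidney tubule markers reached 1582 CPM in kidney Treg replicate 1, and summed myeloid and dendritic markers 1604 CPM in lung Treg replicate 5 and 558 CPM in pancreas Treg. Summed intestinal epithelium markers were 52.6 to 529 CPM in IEL Treg and 82.9 to 994 CPM in LPL Treg, against 5.27 to 34.4 CPM in lymphoid Treg.

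Treg and Tconv were set against each other in 1 fit of the 40 libraries with a term for the source, to ask which receptors separate the cell types whatever the organ. Of the 9 receptors, 8 were higher and 1, Tnfrsf1a, was lower in Treg (edgeR quasi-likelihood test, adjusted p below 0.05). Over the 14983 genes tested, 17.2% passed, 9.88% of them higher and 7.28% lower in Treg. The median log2 difference of the 9 receptors was 1.73, against -0.0037 over all genes tested. Beside it, 7 of 23 adaptor and death pathway genes were higher and none was lower.

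The costimulatory receptors Tnfrsf4, Tnfrsf9 and Tnfrsf18 differed most clearly. Tnfrsf4 had a median of 549 CPM (range 153 to 1402) in Treg libraries, against 60.7 CPM (10.4 to 180) in Tconv libraries. Only in blood Treg did it come down to the range of the highest Tconv library, that of LPL. The log2 difference was 3.32 ± 0.22 (SE, adjusted p = 4.06e-13). Tnfrsf9 had a median of 394 CPM (40.3 to 1190) in Treg, against 41.3 CPM (2.52 to 100) in Tconv, and its log2 difference was 3.15 ± 0.24 (adjusted p = 7.55e-12, edgeR). The low end in both cell types was blood. Tnfrsf18 had a median of 275 CPM (149 to 604) in Treg, against 73.9 CPM (29.0 to 167) in Tconv, and its log2 difference was 2.01 ± 0.16 (adjusted p = 1.46e-11, edgeR).

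Because sources differ, each Tconv library was also set beside the 3 Treg libraries of its own source. All 3 Treg libraries lay above the Tconv library in all 10 sources for Tnfrsf4, Tnfrsf9, Tnfrsf18, Tnfrsf8 and Fas, a pattern that 1.16% of all genes tested showed. The ratio of the Treg mean to the Tconv library ran from 5.94 in Peyer's patch to 25.9 in lymph node for Tnfrsf4, from 3.76 in liver to 28.5 in LPL for Tnfrsf9 and from 2.46 in liver to 7.69 in spleen for Tnfrsf18. With 1 Tconv library per source, these ratios have no error of their own.

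Tnfrsf8 (CD30), which marks activated T cells, had the largest log2 difference, 4.06 ± 0.51 (adjusted p = 3.40e-07, edgeR). It had a median of 21.6 CPM (0.189 to 57.2) in Treg, against 0.567 CPM (0 to 14.5) in Tconv. The Peyer's patch Tconv library stood alone at 14.5 CPM, where the other Tconv libraries had at most 3.03 CPM (IEL). Liver Tconv had 0 counts, which allows up to 3 counts at 95% confidence, and lung, blood and kidney Tconv had 1, 2 and 4 counts, so no ratio is given there. Such limits cover counting error only.

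Tnfrsf1b (TNF receptor 2) had a median of 851 CPM (224 to 3571) in Treg, against 238 CPM (65.8 to 1966) in Tconv, a log2 difference of 1.73 ± 0.21 (adjusted p = 1.44e-07, edgeR). All 3 Treg libraries lay above the Tconv library in 9 of 10 sources, against 2.77% of all genes with at least 9. Kidney was the exception. Its Treg had 1209, 3251 and 3571 CPM, against 1966 CPM in kidney Tconv, which was by far the highest Tconv library. The kidney Treg libraries thus fell on both sides of the Tconv value.

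The other 4 receptors differed less. Fas had a median of 55.6 CPM (27.5 to 159) in Treg, against 28.3 CPM (14.2 to 41.6) in Tconv, a log2 difference of 1.07 ± 0.15 (adjusted p = 2.75e-06, edgeR). Cd27, the receptor of CD70, had a median of 257 CPM (138 to 460) in Treg, against 180 CPM (32.8 to 269) in Tconv, a difference of 0.78 ± 0.16 (adjusted p = 0.000619, edgeR). Its 3 Treg libraries were all above the Tconv library in 8 sources, overlapped it in blood and were all below it in lymph node, where Treg had 209, 246 and 253 CPM, against 269 CPM in Tconv. At least 8 sources above was reached by 5.2% of all genes. Tnfrsf25 had a median of 84.4 CPM (32.2 to 128) in Treg, against 63.0 CPM (26.0 to 126) in Tconv, and its small difference of 0.28 ± 0.09 had an adjusted p of 0.0357 (edgeR). All 3 Treg libraries were above the Tconv library in 7 sources, as in at least 7 sources for 8.69% of all genes, and overlapped it in kidney, lung and LPL. That call was lost in 6 of the fits that left out 1 library and ran to an adjusted p of 0.111 without Peyer's patch Tconv.

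Tnfrsf1a ran the other way. It had a median of 52.9 CPM (23.0 to 112) in Treg, against 96.5 CPM (58.5 to 135) in Tconv, a log2 difference of -0.70 ± 0.12 (adjusted p = 4.05e-05, edgeR). All 3 Treg libraries lay below the Tconv library in 7 sources, as in at least 7 for 6.06% of all genes, and overlapped it in blood, lymph node and IEL, and in no source were they all above it. The paired TNF receptors Tnfrsf1a and Tnfrsf1b thus differed in opposite directions between the cell types. The 10 myeloid and dendritic markers, from cells that also express both TNF receptors, had a median sum of 21.0 CPM in Treg (4.70 to 1604), against 89.5 CPM in Tconv (7.43 to 342). Of the 8 markers tested, 0 were higher and 3 lower in Treg, against 9.88% and 7.28% of all genes. Their part in the difference of Tnfrsf1a was not tested. In bulk libraries, fewer cells that express a receptor and less RNA per cell cannot be told apart.

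**Figure D1:**
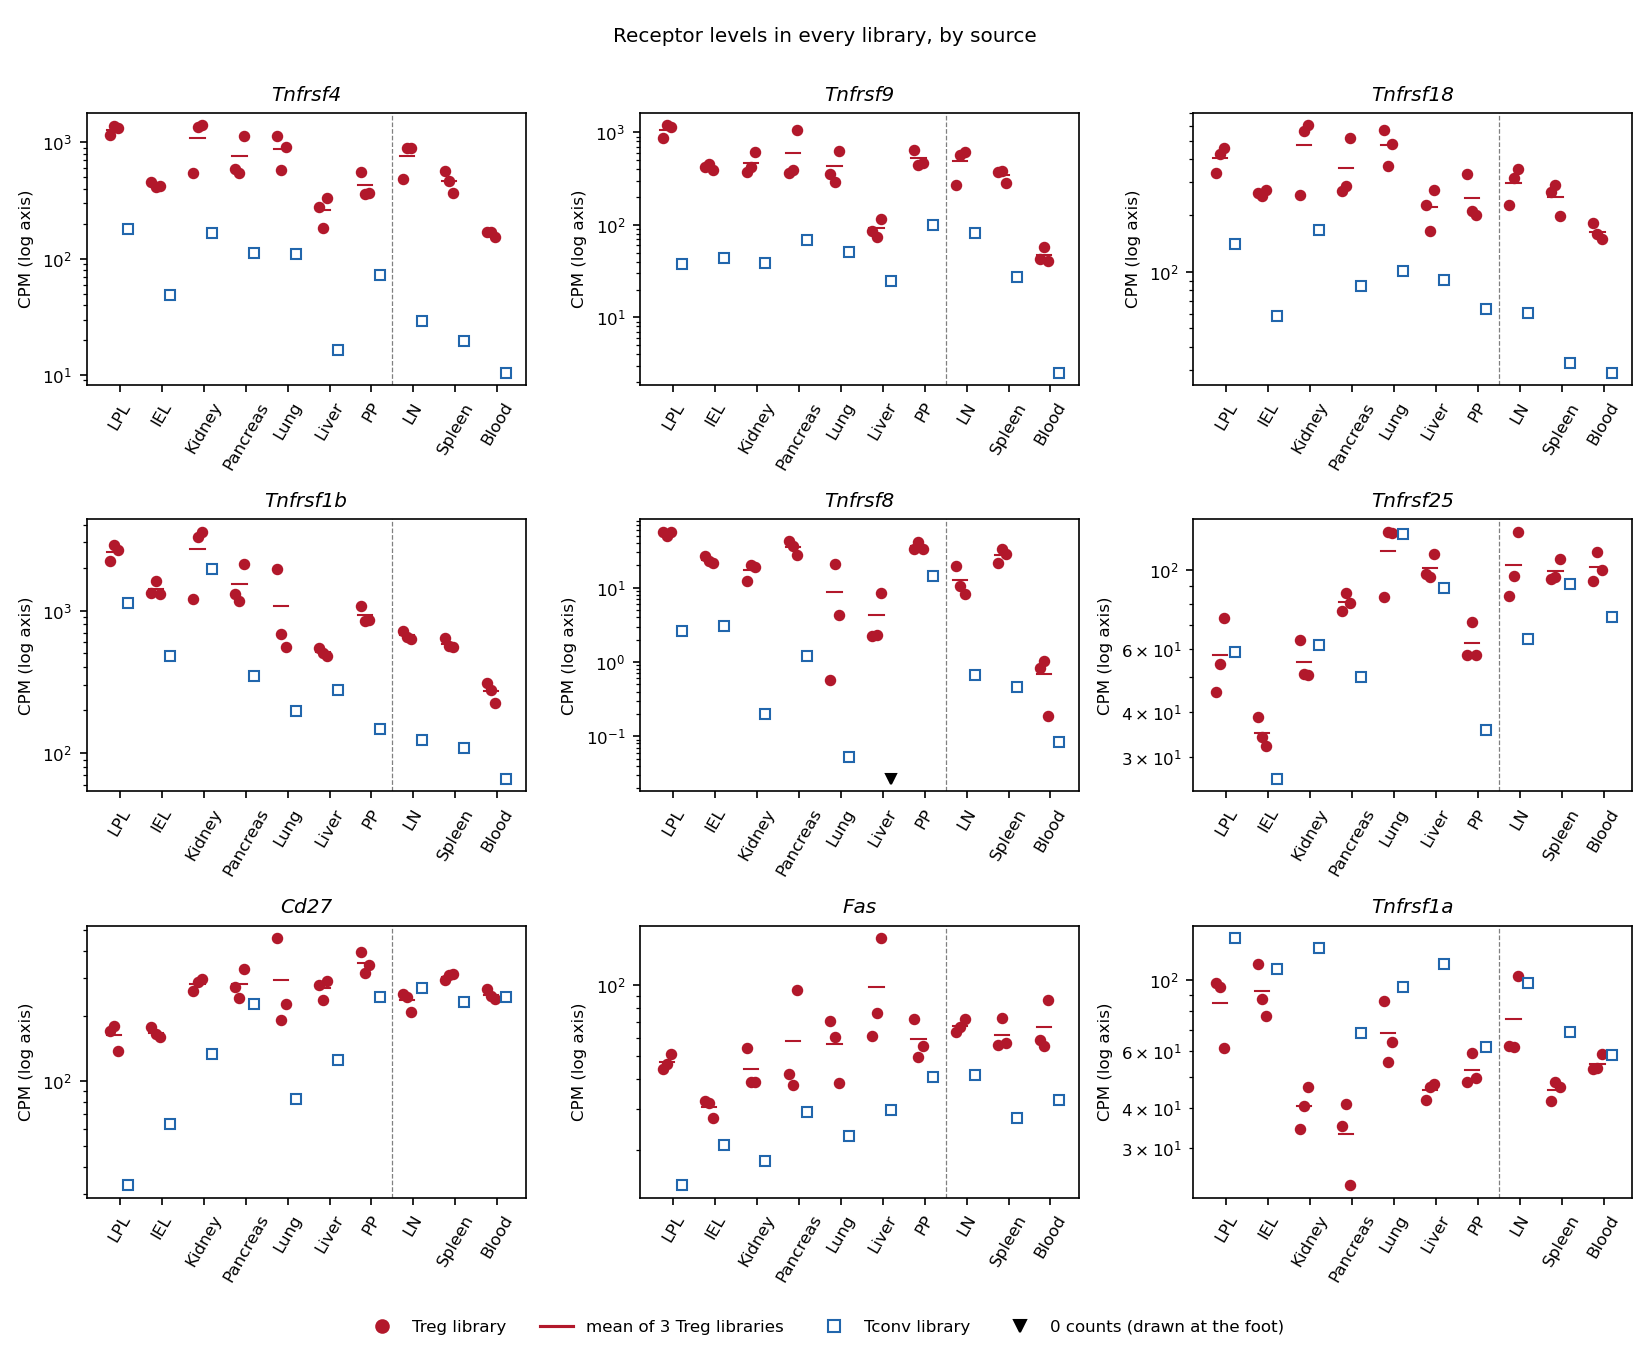
CPM (log axis) of each receptor in every library, by source, with tissues and Peyer's patch left of the dashed line and lymph node, spleen and blood right of it. Filled circles are Treg libraries (3 per source, with their mean as a line), open squares the single Tconv library, and the triangle a library with 0 counts. Tnfrsf4, Tnfrsf9, Tnfrsf18, Tnfrsf8 and Fas have all 3 circles above the square in all 10 sources, and Tnfrsf1a has them there in none.

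Within Treg, the level of each receptor was compared between the 10 sources. All 9 receptors differed between sources (edgeR quasi-likelihood F test, adjusted p from 1.93e-07 for Tnfrsf9 to 0.0159 for Fas), where 34.5% of the 17909 genes tested did. With the replicate number as a block Fas was not called (adjusted p = 0.221, edgeR). The steepest was Tnfrsf8, at 54.9 ± 3.8 CPM in LPL Treg, against 0.681 ± 0.438 CPM in blood Treg (SD, n = 3 each), a ratio of means of 80.6. For Tnfrsf9 the means were 1073 ± 172 CPM in LPL and 46.9 ± 9.3 CPM in blood, a ratio of 22.9. The ratios of the highest to the lowest source were 9.87 for Tnfrsf1b (kidney over blood), 7.82 for Tnfrsf4 (LPL over blood), 3.23 for Fas (liver over IEL), 3.22 for Tnfrsf25 (lung over IEL), 2.92 for Tnfrsf18 (kidney over blood), 2.78 for Tnfrsf1a (IEL over pancreas) and 2.17 for Cd27 (Peyer's patch over LPL).

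Blood Treg had the lowest mean of all 10 sources for Tnfrsf4, Tnfrsf9, Tnfrsf18, Tnfrsf1b and Tnfrsf8, and liver Treg the second lowest of each. Tnfrsf4 had 276, 182 and 336 CPM in liver Treg, and 170, 170 and 153 CPM in blood Treg. Tnfrsf9 had 86.6, 74.1 and 116 CPM in liver Treg, and 42.9, 57.5 and 40.3 CPM in blood Treg. The liver libraries lay above the blood libraries for both genes, but no receptor was called between liver and blood (adjusted p from 0.213 for Tnfrsf8 upward, edgeR). Blood was called below each of the other 8 sources for Tnfrsf4, Tnfrsf9 and Tnfrsf8. The transcript Gm26917 was high in all libraries of both sources, with 2.203% to 2.492% of counts in blood Treg and 2.12% to 4.67% in liver Treg. It took 0.176% to 0.434% in spleen and lymph node Treg, and 0.301% and 0.405% in blood and liver Tconv. Single Treg libraries elsewhere were also high. These were Peyer's patch replicate 1 (3.56%), kidney replicate 1 (2.23%), lung replicate 1 (1.57%) and pancreas replicate 6 (1.37%). Kidney replicate 1 had the lowest Tnfrsf4 and Tnfrsf9 of its source. Peyer's patch replicate 1 and pancreas replicate 6 had the highest of both in theirs, and lung replicate 1 the highest Tnfrsf4. The part of Gm26917 in the receptor levels was not tested.

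The orders by mean differed between the receptors. Tnfrsf4 ran from LPL through kidney, lung, pancreas, lymph node, spleen, Peyer's patch and IEL to liver and blood, with 454, 410 and 422 CPM in IEL and 1158, 1377 and 1326 CPM in LPL Treg. These libraries did not overlap, but that pair just missed the threshold (IEL minus LPL -1.58 ± 0.33, adjusted p = 0.0558, edgeR). Tnfrsf8 ran from LPL through Peyer's patch, pancreas, spleen, IEL, kidney, lymph node and lung to liver and blood. Tnfrsf25 had a different order, from lung, lymph node, blood, liver and spleen through pancreas and Peyer's patch to LPL, kidney and IEL. Cd27 was highest in Peyer's patch and lowest in IEL and LPL, and Fas was highest in liver, where 1 library of 159 CPM stood above 60.9 and 76.4 CPM, and lowest in IEL. Tnfrsf1a was highest in IEL and LPL and lowest in kidney and pancreas.

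Most steps in these orders were small against the spread. Neighbours in an order have the closest means, and the share of neighbouring pairs called over all genes was not counted. Of 81 pairs of neighbouring sources, 2 were called, Tnfrsf9 in spleen over liver (log2 1.90 ± 0.36, adjusted p = 0.00679, edgeR) and Tnfrsf25 in kidney over IEL (0.65 ± 0.19, adjusted p = 0.0450, edgeR). The 3 libraries of both sources did not overlap in 19 of the 81 pairs, against 3.47% over all genes. Over all 45 pairs of sources, Tnfrsf1b was called in 23, Tnfrsf25 in 21, Tnfrsf4 and Tnfrsf9 in 19 each, Tnfrsf8 in 14, Cd27 in 13, Tnfrsf1a in 12, Tnfrsf18 in 7 and Fas in 5, against 6.15% of pairs over all genes.

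Treg of the 6 tissues were then compared with Treg of lymph node, spleen and blood. Of the 9 receptors, 5 were higher in tissue Treg (Tnfrsf1b, Tnfrsf8, Tnfrsf9, Tnfrsf4 and Tnfrsf18), Tnfrsf25 was lower, and Cd27, Fas and Tnfrsf1a did not pass. Of all genes tested, 21.8% passed, 11.9% higher and 9.98% lower in tissue Treg, so that tissue differences were common. Of 8 B cell markers, 6 were lower and none higher in tissue Treg, with a median log2 difference of -2.31. Their sum was 25.4 to 105 CPM in tissue Treg, against 33.0 to 343 CPM in lymphoid Treg, and its part in the receptor values was not tested. Cd27 (-0.15 ± 0.11) was called without lung Treg replicate 1 (-0.23, adjusted p = 0.0206), and Fas (-0.31 ± 0.16) without liver replicate 4 (-0.42, adjusted p = 0.0289) or pancreas replicate 6 (-0.40, adjusted p = 0.0358, edgeR). The median log2 difference of the 9 receptors was 0.61, against 0.03 over all genes.

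Tnfrsf1b showed the firmest tissue difference, 1.59 ± 0.19 on the log2 scale (SE, adjusted p = 2.01e-06, edgeR). The others were 1.50 ± 0.37 for Tnfrsf8 (adjusted p = 0.00432), 1.06 ± 0.18 for Tnfrsf9 (0.000153), 0.83 ± 0.17 for Tnfrsf4 (0.000924), 0.61 ± 0.15 for Tnfrsf18 (0.00405) and -0.56 ± 0.09 for Tnfrsf25 (0.000111). For none of the 9 did every tissue library lie on one side of every lymphoid library, which 0.0782% of all genes did in the higher and 0.00558% in the lower direction. The calls of 4 of these receptors were made neither with lymph node alone nor with spleen alone as the lymphoid side, each of which leaves 3 libraries there. A fit with both organs and without blood was not run. With lymph node alone, where 16.2% of all genes were called, Tnfrsf4 and Tnfrsf9 changed sign to -0.14 and -0.23 and were not called (adjusted p = 0.792 and 0.622, edgeR), and Tnfrsf18 and Tnfrsf8 were at 0.24 and 0.45, not called. With spleen alone (7.69% of all genes), Tnfrsf8 was at -0.64 and Tnfrsf9, Tnfrsf4 and Tnfrsf18 were between 0.27 and 0.57, none called. Tnfrsf1b and Tnfrsf25 were the 2 receptors still called against either organ alone. With counts summed per source, so that each source counted once, 0.0% of all genes and none of the 9 receptors were called (edgeR; 2753 of 18000 genes had an unadjusted p below 0.05).

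**Figure D2:**
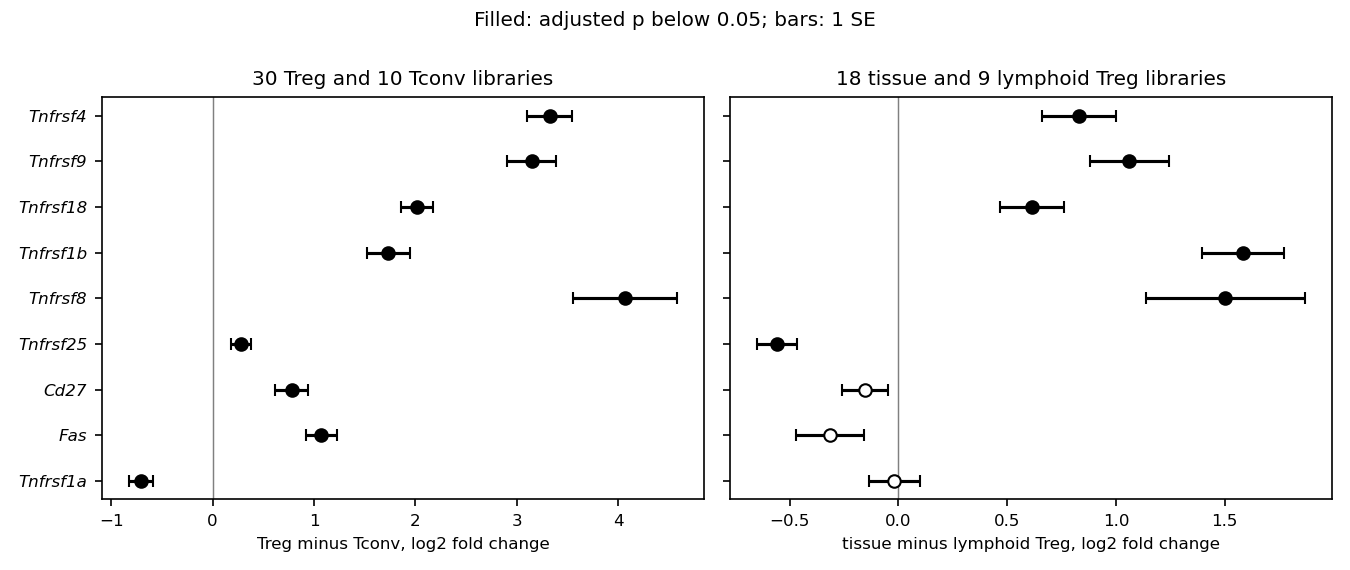
Log2 fold changes of the 9 receptors with 1 SE, for Treg minus Tconv (left) and for tissue minus lymphoid Treg (right); filled points have an adjusted p below 0.05 (edgeR). Tnfrsf1a is the only receptor below 0 on the left, and Tnfrsf25 the only filled point below 0 on the right.

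Each source was also set against the same 9 lymphoid Treg libraries, which the 7 contrasts share. Counting both directions, 33 of 63 values were called, against 13.0% over all genes and sources. LPL Treg had 6 receptors higher and 2 lower, where 17.4% of all genes were higher and 9.7% lower. IEL Treg had 4 higher and 3 lower, against 13.5% and 7.77% of all genes. Kidney Treg had 4 and 1 (12.2% and 4.26% of all genes), pancreas Treg 4 and 1 (7.64% and 2.31%), lung Treg 4 and 0 (8.64% and 2.85%) and Peyer's patch Treg 3 and 1 (2.94% and 0.625%). Liver Treg, where 0.955% of all genes were higher and 0.162% lower, had no receptor called. With lymph node alone as the lymphoid side 15 of the 63 were called, against 9.26% over all genes, and with spleen alone 15, against 5.35%. Of the 33 calls, 12 were also made with lymph node alone, 14 with spleen alone and 8 with each of them. Those 8 were Tnfrsf1b in LPL, IEL, kidney and pancreas, Tnfrsf25 in LPL, IEL and kidney, and Tnfrsf9 in LPL.

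In LPL Treg 8 receptors were called, beside intestinal epithelium markers of which 8 of 8 were higher there (median log2 10.13) and whose part was not tested. Tnfrsf8 had 57.2, 50.6 and 57.0 CPM in LPL Treg, against a median of 10.4 CPM (0.189 to 33.0) in lymphoid Treg, a log2 difference of 3.14 ± 0.49 (adjusted p = 4.20e-05, edgeR). Tnfrsf9 had 876, 1190 and 1154 CPM in LPL Treg, against 281 CPM (40.3 to 619) in lymphoid Treg, a difference of 2.44 ± 0.26 (adjusted p = 1.74e-07, edgeR). For both genes no lymphoid library reached the LPL libraries, a pattern whose share over all genes was not counted. Tnfrsf8 was not called against spleen alone (adjusted p = 0.339, edgeR). Tnfrsf1b was 2.45 ± 0.26 higher (adjusted p = 1.86e-07) and Tnfrsf4 1.73 ± 0.25 higher (adjusted p = 1.12e-05, edgeR), though against lymph node alone Tnfrsf4 was at 0.76 (adjusted p = 0.0985, edgeR). In the same libraries Tnfrsf25 and Cd27 were lower (-0.80 ± 0.16 and -0.69 ± 0.18), Cd27 without a call against lymph node alone (-0.54, adjusted p = 0.0704, edgeR). Tnfrsf18 (0.82 ± 0.23) was higher too but was called neither without LPL replicate 3 (0.69, adjusted p = 0.0644) nor against lymph node or spleen alone (adjusted p = 0.285 and 0.116, edgeR). Tnfrsf1a (0.57 ± 0.18, adjusted p = 0.0229) was higher with a margin that any 1 of 5 libraries could end, with an adjusted p of up to 0.190 without LPL replicate 2 (0.43, edgeR). It was not called against lymph node alone (0.16, adjusted p = 0.662, edgeR).

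In IEL Treg, Tnfrsf8, Tnfrsf1b and Tnfrsf9 were higher (1.94 ± 0.50, 1.58 ± 0.26 and 1.10 ± 0.27), while Tnfrsf4 and Tnfrsf18 were at 0.15 ± 0.26 and 0.20 ± 0.23 and were not called. Tnfrsf9 was at -0.19 against lymph node alone (adjusted p = 0.751) and 0.30 against spleen alone (adjusted p = 0.674, edgeR), and Tnfrsf8 at 0.89 and -0.20 (adjusted p = 0.372 and 0.922, edgeR), none of them called. All 8 intestinal epithelium markers were higher in IEL Treg as well (median log2 10.26). IEL Treg had the lowest Tnfrsf25 of all sources, 38.8, 34.0 and 32.2 CPM, against a median of 95.9 CPM (84.6 to 128) in lymphoid Treg, a log2 difference of -1.52 ± 0.17 (adjusted p = 5.66e-07, edgeR). No IEL library reached the lymphoid range, and the share of all genes with such a gap was not counted. Fas (-1.09 ± 0.28) and Cd27 (-0.64 ± 0.18) were lower in IEL Treg too, and Tnfrsf1a was higher (0.69 ± 0.18). Cd27 was no longer called without IEL replicate 2 (-0.63, adjusted p = 0.0560) or 3 (-0.60, adjusted p = 0.0693), nor Tnfrsf1a without IEL replicate 1 (0.53, adjusted p = 0.101, edgeR). Against lymph node alone Cd27 and Tnfrsf1a were not called (adjusted p = 0.109 and 0.415), nor was Fas against spleen alone (adjusted p = 0.0537, edgeR).

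Kidney Treg had the highest Tnfrsf1b, at 1209, 3251 and 3571 CPM, against a median of 563 CPM (224 to 723) in lymphoid Treg, a log2 difference of 2.50 ± 0.26 (adjusted p = 2.82e-07, edgeR). All 3 lay above every lymphoid library, a pattern whose share over all genes was not counted. Tnfrsf4 (1.51 ± 0.25), Tnfrsf9 (1.24 ± 0.26) and Tnfrsf18 (1.05 ± 0.22) were higher in kidney as well, and Tnfrsf25 was lower (-0.87 ± 0.16). Against lymph node alone, Tnfrsf4, Tnfrsf9 and Tnfrsf18 were at 0.54, -0.049 and 0.67 and were not called (adjusted p = 0.282, 0.963 and 0.128, edgeR). Against spleen alone, Tnfrsf9 and Tnfrsf18 were not called (adjusted p = 0.472 and 0.0588, edgeR). Tnfrsf8, at 1.47 ± 0.51, just missed the threshold (adjusted p = 0.0507, edgeR) and passed it without any 1 of 5 libraries. Kidney Treg replicate 1, the library with 1582 CPM of tubule markers, had the lowest level of the 3 kidney libraries in Tnfrsf4, Tnfrsf9, Tnfrsf18, Tnfrsf1b and Tnfrsf8. Pancreas Treg had higher Tnfrsf8 (2.52 ± 0.50), Tnfrsf1b (1.69 ± 0.26), Tnfrsf9 (1.60 ± 0.26) and Tnfrsf4 (0.97 ± 0.25) and lower Tnfrsf1a (-0.78 ± 0.20). Pancreas replicate 6, with 102688 CPM of acinar markers, had the highest Tnfrsf4, Tnfrsf9, Tnfrsf18 and Tnfrsf1b and the lowest Tnfrsf1a of the 3, and without it the calls of Tnfrsf4 (adjusted p = 0.209) and Tnfrsf1a (adjusted p = 0.119, edgeR) were lost. Tnfrsf8, Tnfrsf9 and Tnfrsf4 in pancreas were called neither against lymph node alone (1.47, 0.31 and 0.0021) nor against spleen alone (0.38, 0.81 and 0.71), with adjusted p from 0.180 upward, and Tnfrsf1a not against spleen alone (adjusted p = 0.335, edgeR). The part of other cells' RNA in these values was not tested.

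In lung Treg, Tnfrsf4 and Tnfrsf1b (1.17 ± 0.25 and 1.17 ± 0.27), Tnfrsf9 (1.10 ± 0.27) and Tnfrsf18 (1.03 ± 0.22) were higher. None of the 4 was called against lymph node alone (0.19, 0.67, -0.19 and 0.65, adjusted p from 0.235 upward) or spleen alone (0.90, 0.87, 0.31 and 0.91, adjusted p from 0.0562 upward, edgeR). Lung Treg replicate 1 stood apart. It had 1965 CPM of Tnfrsf1b, against 689 and 556 CPM in lung replicates 5 and 6, and 0.578 CPM of Tnfrsf8, against 21.2 and 4.25 CPM. Without it the difference of Tnfrsf1b was 0.37 and was not called (adjusted p = 0.326, edgeR). Tnfrsf9 was not called without lung replicate 6 (0.67, adjusted p = 0.158, edgeR). Peyer's patch Treg had higher Tnfrsf8 (2.54 ± 0.50), Tnfrsf9 (1.40 ± 0.26) and Tnfrsf1b (0.97 ± 0.27, adjusted p = 0.0425), the last of which was lost in 12 of the fits without 1 library. None of these 3 was called against lymph node alone (1.49, 0.11 and 0.47, adjusted p from 0.213 upward) or spleen alone (0.41, 0.61 and 0.68, adjusted p from 0.457 upward, edgeR). Tnfrsf25 was lower there (-0.69 ± 0.16), but was not called without Peyer's patch replicate 1 (-0.61, adjusted p = 0.124) or 3 (-0.63, adjusted p = 0.102, edgeR), or against spleen alone (adjusted p = 0.117, edgeR). In liver Treg the largest difference was Tnfrsf9, at -1.11 ± 0.30 (adjusted p = 0.0702, edgeR), which was called against lymph node alone (-2.40, adjusted p = 0.000716) and spleen alone (-1.90, adjusted p = 0.00679).

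**Figure D3:**
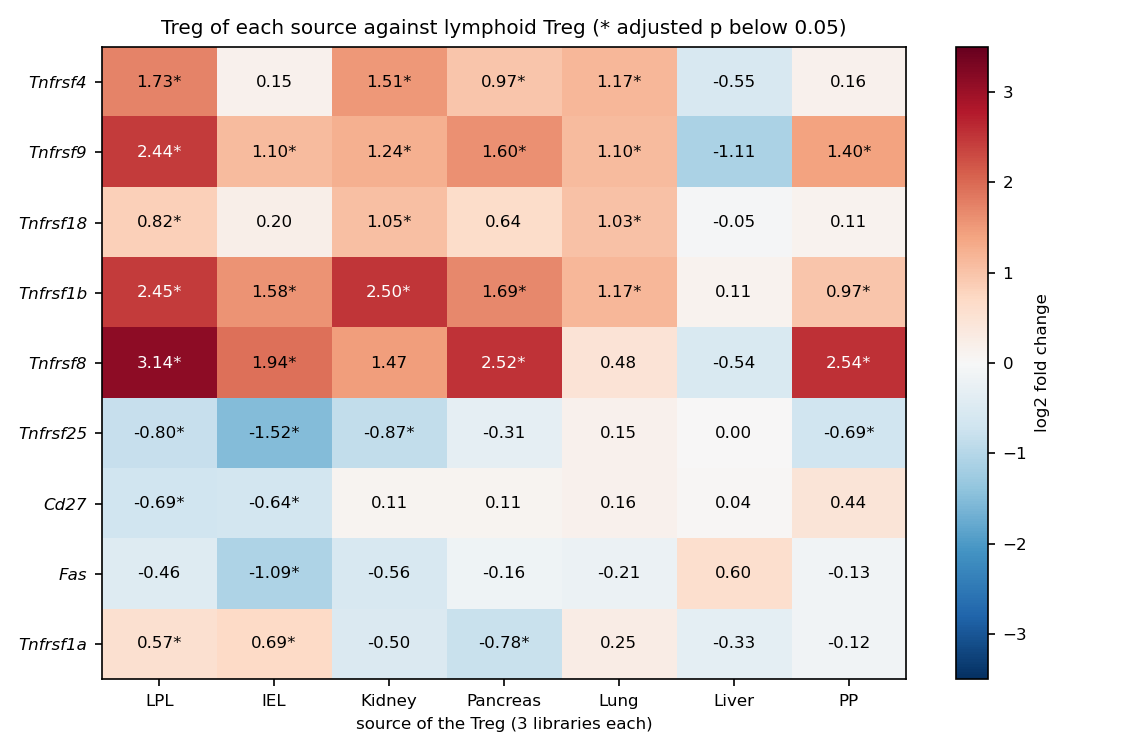
Log2 fold change of each receptor (rows) in Treg of each source (columns, 3 libraries each) against the 9 lymphoid Treg libraries, with an asterisk at an adjusted p below 0.05 (edgeR). LPL has 8 called receptors and liver none, and Tnfrsf9 and Tnfrsf1b are called higher in 6 of 7 sources.

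Early response genes, which T cells induce soon after stimulation, moved with the tissue difference. Of the 22 genes of that list, 18 were higher and 1 lower in tissue Treg, against 11.9% and 9.98% of all genes. Their median log2 difference was 3.03, against 0.03 over all genes. Gadd45b (3.87 ± 0.37) and Junb (3.33 ± 0.34) had the smallest p. The summed level of the list was 3023 to 31138 CPM in tissue Treg, against 2670 to 3791 CPM in lymphoid Treg. Kidney Treg replicate 5, the highest library of that sum, was also the highest in Tnfrsf1b, Tnfrsf4 and Tnfrsf18. Lung Treg replicate 1 had a sum of 15548 CPM, the highest of the 3 lung libraries, and the lowest Tnfrsf8 of the 3. Liver Treg had sums of 3023 to 3497 CPM, within the lymphoid range, and no receptor called. In IEL and Peyer's patch Treg, 16 and 13 of the 22 genes were higher, against 13.5% and 2.94% of all genes. Tnfrsf4 and Tnfrsf18 were not called in these sources. The part of this response in the receptor levels was not tested. Tissue digestion is listed for every sample, and its part in the levels of these genes was not tested either.

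Tconv of the same tissues were compared with lymphoid Tconv with 1 library per source, 6 against 3. No gene passed, and so no receptor did (edgeR; 2119 of 14453 genes had an unadjusted p below 0.05, and DESeq2 called 1085 genes, 3 of them receptors: Tnfrsf1b, Tnfrsf4 and Tnfrsf18). The fitted log2 differences were 2.87 ± 0.77 for Tnfrsf1b, 2.39 ± 0.68 for Tnfrsf4, 1.38 ± 0.37 for Tnfrsf18 and -1.19 ± 0.45 for Cd27. Tnfrsf1b had 1966, 1123, 483, 349, 279 and 197 CPM in Tconv of kidney, LPL, IEL, pancreas, liver and lung, against 124, 109 and 65.8 CPM in Tconv of lymph node, spleen and blood. Every tissue library was above every lymphoid library, as for 4.13% of all genes. Cd27 had 133, 32.8, 62.9, 227, 125 and 82.7 CPM in the same tissue libraries, against 269, 231 and 243 CPM in lymphoid Tconv, and every tissue library was below every lymphoid library, as for 3.11% of all genes.

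Whether tissue changed Treg and Tconv differently was tested as a difference of the tissue differences. It passed for Cd27 (1.26 ± 0.21, adjusted p = 0.00106) and Tnfrsf4 (-1.33 ± 0.34, adjusted p = 0.0417, edgeR) and for none of the other 7, where 1.75% of all genes passed, 0.514% higher and 1.23% lower in Treg. Cd27, whose tissue difference in Treg was -0.15 ± 0.11, thus had a higher tissue difference in Treg than in Tconv. In LPL it had 170, 179 and 138 CPM in Treg, against 32.8 CPM in Tconv, a ratio of means of 4.95, and in lymph node the ratio was 0.877. The Treg minus Tconv difference of Cd27 also depended on the source over all 10 sources (adjusted p = 0.00982), as for 2.03% of all genes, and that call was lost without LPL Tconv (adjusted p = 0.0545, edgeR). For Tnfrsf4 the tissue difference was smaller in Treg than in Tconv: the ratio of Treg to Tconv was 8.76 or less in 5 of the 6 tissues and 16.0 in liver, against 25.9 in lymph node, 23.6 in spleen and 15.8 in blood. That call was lost without any 1 of 6 of the Tconv libraries, with an adjusted p of up to 0.375 without blood Tconv. The Tconv arms hold 1 library each and are taken to vary as the Treg libraries do.

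Summed markers of CD8, gamma delta T and NK cells were 346.7 CPM in IEL Tconv, 331.5 CPM in liver, 262 CPM in LPL, 164 CPM in lung, 83.3 CPM in kidney and 75.7 CPM in pancreas Tconv, against 31.6 to 78.4 CPM in lymphoid Tconv. None of the 7 markers tested passed between tissue and lymphoid Tconv, where their median log2 difference was 5.07. In Treg it was 19.9 to 73.0 CPM in tissue, against 21.7 to 60.2 CPM in lymphoid libraries. Summed Treg markers reached 1168 CPM in LPL Tconv, with Foxp3 itself at 0.664 CPM there. The part of these cells in the values of Cd27 and Tnfrsf4 was not tested.

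**Figure D4:**
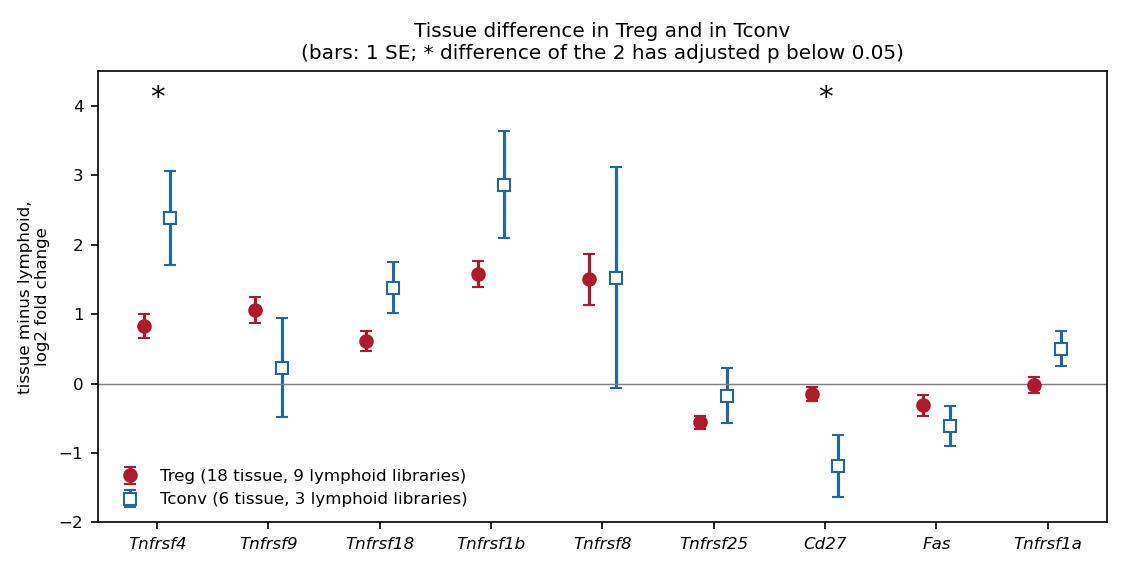
Tissue minus lymphoid log2 fold change with 1 SE for each receptor in Treg (filled circles, 18 and 9 libraries) and in Tconv (open squares, 6 and 3 libraries); the asterisk marks receptors whose 2 values differed with an adjusted p below 0.05 (edgeR). Tnfrsf4 is at 0.83 in Treg and 2.39 in Tconv, and Cd27 at -0.15 in Treg and -1.19 in Tconv.

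Other genes of the pathway were read from lists written from general knowledge. Of 19 further TNF receptor superfamily genes, 13 could be tested between Treg and Tconv, with 2 higher and 2 lower. Over all genes tested, 9.88% were higher and 7.28% lower in Treg. Tnfrsf13b (TACI, a receptor of BAFF and APRIL) was higher in Treg, at 89.2 ± 24.2 CPM, against 42.7 ± 16.5 CPM in Tconv (SD over 30 and 10 libraries; log2 1.12 ± 0.15), and Tnfrsf10b, the mouse death receptor for TRAIL, was higher by 1.16 ± 0.39. Relt and Tnfrsf14 (HVEM) were lower (-0.63 ± 0.11 and -0.67 ± 0.15). Between tissue and lymphoid Treg, 3 of 14 were higher and 1 lower, against 11.9% and 9.98% of all genes. Tnfrsf10b was 16.2 ± 12.7 CPM in tissue Treg, against 2.58 ± 1.13 CPM in lymphoid Treg (log2 2.37 ± 0.35, adjusted p = 2.96e-05, edgeR), and Ltbr, which was at most 0.376 CPM in lymphoid Treg, passed at 2.97 ± 5.21 CPM in tissue Treg.

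Among 17 ligands, 1 of 13 tested was higher and 3 were lower in Treg than in Tconv, against 9.88% and 7.28% of all genes. Cd40lg, the ligand of the B cell receptor CD40, was at 62.0 ± 41.7 CPM in Treg, against 290 ± 187 CPM in Tconv (log2 -2.21 ± 0.12, adjusted p = 4.46e-15, edgeR), and Fasl, the ligand of Fas, was at 33.4 ± 49.7 CPM in Treg, against 122 ± 126 CPM in Tconv (-1.62 ± 0.39). Tnfsf14 (LIGHT) was lower by -1.42 ± 0.38. Tnfsf15, which codes for the Tnfrsf25 ligand TL1A, was called higher in Treg at a mean of 0.719 CPM, against 0.005 CPM in Tconv. In tissue Treg 5 of 15 ligands were higher and 2 lower than in lymphoid Treg, against 11.9% and 9.98% of all genes. Among them were Lta (-1.55 ± 0.23) and Ltb (-0.77 ± 0.14), which form lymphotoxin, Cd40lg (0.89 ± 0.16) and Tnfsf11 (RANKL, 0.74 ± 0.15).

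Of 23 adaptor and death pathway genes, the 7 higher in Treg than in Tconv included Tank (0.92 ± 0.10), Birc3 (0.84 ± 0.16) and Traf2 (0.41 ± 0.08), which act beside the receptors' TRAF complexes. Over all genes tested, 9.88% were higher in Treg than in Tconv. Between tissue and lymphoid Treg, 6 of the 23 were higher and 2 lower, against 11.9% and 9.98% of all genes. Tnfaip3 (A20), a feedback inhibitor of NF-kB, was at 3477 ± 2548 CPM in tissue Treg, against 217 ± 115 CPM in lymphoid Treg (3.53 ± 0.45, adjusted p = 6.65e-06, edgeR), and the TRAF gene Traf4 was higher by 1.32 ± 0.24. The 2 lower genes were Casp8 (-0.80 ± 0.12), the initiator caspase of Fas signalling, and the survival gene Bcl2 (-1.53 ± 0.23).

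Across the 30 Treg libraries, which share sources, the receptors fell into patterns that are described here without a test. On log2(CPM + 1), Tnfrsf4 and its neighbour Tnfrsf18 had a Pearson r of 0.92 (Spearman rho 0.91), Tnfrsf4 and Tnfrsf9 0.87 (0.74) and Tnfrsf4 and Tnfrsf1b 0.81 (0.76). Tnfrsf1b and Tnfrsf25 ran against each other, with r = -0.66 (rho -0.79), and so did Tnfrsf1a and Cd27 (r = -0.52). The genes most like Tnfrsf1b were Adora2a, an adenosine receptor, Bhlhe40 and Nr4a3 (r = 0.95, 0.95 and 0.94). Those most like Tnfrsf4 after Tnfrsf18 were Odc1 and Bcl2a1d (both 0.92), and those most like Tnfrsf18 after Tnfrsf4 were Odc1 (0.92) and Srgn (0.91). Tnfrsf9 was most like Penk, Tnfsf11 and C1qtnf12 (0.91, 0.90 and 0.90), and Tnfrsf8 most like Tnfsf11, Tox2 and Sh3gl3 (0.88, 0.86 and 0.85).

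Of the other receptors, Cd27 was most like Igsf23, Cd2 and Tnfsf8 (0.78 each), Tnfrsf1a most like Vhl, Zfp24 and Zfp959 (0.82, 0.78 and 0.75), Tnfrsf25 most like Jtb, Rexo2 and Churc1 (0.86, 0.85 and 0.85), and Fas most like Rpl5, Rpl21 and Eef1g (0.79, 0.76 and 0.76), which are genes of the ribosome and of translation.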

How the data were processed

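RNA of 2000 sorted cells per library was sequenced with the QuantSeq 3′ kit, per the labels' protocols, so counts were not divided by gene length. The authors deposited whole-number read counts per gene for 40 libraries. The submitters' processing notes name FastQC, MultiQC, Trim Galore, STAR, featureCounts, DESeq2, DESeq and the build mm10. The annotation release and the use of strand are not given in the sources used here. Of 55421 gene identifiers, 55154 were given a symbol through an mm10 annotation. Libraries of a source differed by at least 20.1 times the variance of counting (chi-square per degree of freedom), so none was a copy.

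The main tests were those of edgeR 4.0.16 in R 4.3.3 (filterByExpr, TMM, robust quasi-likelihood F test), with a Benjamini-Hochberg adjusted p below 0.05 over all genes as a call. Treg against Tconv used all 40 libraries with the source as a term. Contrasts within Treg came from a fit of 30 libraries with 10 source means, each weighted equally, Tconv contrasts 9 libraries, and differences between cell types all 40 with a mean per source and type. On simulated data, edgeR recovered 60.6% and 83.0% of genes changed by 1 and 2 on the log2 scale between Treg and Tconv (14651 genes), 49.0% and 62.0% between tissue and lymphoid Treg (17201 genes), 3.12% and 48.9% between tissue and lymphoid Tconv (13654 genes) and 13.3% and 60.9% for the difference of both (14672 genes). In the same order, 6 of 136, 9 of 113, 1 of 49 and 7 of 76 calls fell on unchanged genes.

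The receptors and the gene lists were chosen with earlier results of these data known. All 9 receptors are named in every comparison. From other lists, up to 4 called genes with the smallest p are named (1 such gene is not reported here), and for each receptor the 3 genes of highest Pearson correlation, without predicted genes and receptor segments. Alternatives were DESeq2 1.42.0 and its size factors, no filter, other reference sources, sources left out, sums per source, a replicate block, single libraries left out and, added after the data were seen, kidney and lung Treg replicate 1 left out together, the libraries of their sources with the largest share of the transcript Gm26917 (2.23% and 1.57%). Over the Treg libraries, pairs with the same replicate number had a median correlation of -0.030, against 0.003 for other pairs. Plots used Python 3.11.15 and matplotlib 3.10.9.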

Additional observations from a re-analysis of the deposited data

Results flagged for a closer look

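Tnfrsf1a in lymph node Treg replicate 10 was 102.9 CPM, far above the next of the 9 lymphoid Treg libraries (62.3 CPM); the same library had the lowest Foxp3 of all Treg (68.3 CPM). Tnfrsf8 in Peyer's patch Tconv was 14.5 CPM, far above the next of the 10 Tconv libraries (3.03 CPM). Of 27 groups of libraries tested in this way, chance marks about 1 in 20.

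The tissue difference of Cd27 was higher in Treg than in Tconv, with an adjusted p of 0.00106 (edgeR), and that of Tnfrsf4 was lower in Treg, with an adjusted p of 0.0417. The Treg minus Tconv difference of Cd27 also varied over the 10 sources, with an adjusted p of 0.00982 (edgeR). In all 6 tissues, and also in spleen and Peyer's patch, Cd27 was higher in each Treg library than in the Tconv library. Of all genes, 5.2% showed this in at least 8 sources.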

How the results depend on the processing

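Each Tconv group is 1 library per source, so the comparisons within Tconv and between cell types by source rest on single libraries. The lymphoid side holds 3 sources, of which blood Treg was called below the other 2 for Tnfrsf4, Tnfrsf9 and Tnfrsf8. For no other receptor was blood called apart from both. Among the counts of called receptors and genes, 61 values under planned or added settings stayed within 1.5 times the value reported and 25 did not. Among single receptors, 688 kept their side of the threshold, 74 lost a call, 23 gained one and 7 changed sign with a call in either fit. A change of sign without a call in either fit was counted as kept. The cause of these changes was not tested beyond what each setting changes.

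Libraries with the same replicate number seldom correlated: of 58 pairs of Treg libraries with the same number, 12 had a correlation over 0.1, with a median of -0.030, and 7 of 28 libraries correlated best with their own number. Among spleen, Peyer's patch, IEL and LPL Treg, every pair of replicate 2 libraries correlated positively, from 0.113 to 0.287. Blood replicate 2 correlated negatively with each of these, from -0.089 to -0.134. Whether some libraries share an animal cannot be told from these values. With a replicate block, genes called were 2035 between Treg and Tconv, 1595 between tissue and lymphoid Treg, 7039 over the single sources and 3416 between all sources, where Fas was then not called (adjusted p = 0.221, edgeR). In a replicate block over the 6 pairs of Treg and Tconv libraries that share a number, 5 receptors and 635 genes were called between Treg and Tconv. A fit with a mean per source and type gave 2387 genes higher and 884 lower in Treg, against 1480 and 1091 as reported.

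With lymph node alone as the lymphoid side, 2 receptors were called in tissue Treg and 15 over the single sources. Tnfrsf4 was then at -0.14 and Tnfrsf9 at -0.23 in tissue, and Tnfrsf9 at -0.19 in IEL, -0.049 in kidney and -0.19 in lung. Over all genes, 1210 were then higher and 1686 lower. With spleen alone, 2 and 15 receptors and 1377 and 6707 genes were called, with Tnfrsf8 at -0.64 in tissue and -0.20 in IEL. With blood alone, 2122 and 10546 genes were called. Counts summed per source called 0 receptors and 0 genes (2753 genes at an unadjusted p below 0.05). Without IEL and LPL, 2223 genes were called.

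With no filter, 1 pair of neighbouring sources, 1 receptor in the difference of tissue differences and 18 genes in tissue Tconv were called. DESeq2 called 86720 values over all pairs of sources, 3 receptors and 1085 genes in tissue Tconv, 601 genes in the difference of tissue differences, and 3 receptors (Cd27, Tnfrsf8 and Tnfrsf9) and 1169 genes by source.

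Leaving out 1 library gave 8 to 9 receptors and 2238 to 2839 genes between Treg and Tconv, 6 to 7 and 3165 to 4483 in tissue Treg, 31 to 35 and 13691 to 19820 over the single sources, 9 and 5312 to 7830 between all sources, 0 and 0 to 111 in tissue Tconv (111 without pancreas Tconv), 1 to 2 and 137 to 415 in the difference of tissue differences (137 without blood Tconv, 415 without pancreas Tconv), and 0 to 1 and 191 to 359 by source (191 without lung Tconv, 194 without lymph node Tconv). In the fits of both cell types by source, only Tconv libraries were left out in turn; leaving out Treg libraries was not run there.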

Other observations

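The ligands of the 9 receptors, read because they bind them and not by their values, were unequal in level. Tnfsf18, the ligand of Tnfrsf18, had 0 counts in all 40 libraries, which allows up to 3 counts in each. Cd70, the ligand of Cd27, was at most 2.33 CPM in Treg libraries and 0.806 CPM in Tconv libraries. Tnfsf4, the ligand of Tnfrsf4, averaged 1.47 ± 2.85 CPM in Treg and 2.12 ± 1.72 CPM in Tconv (SD, n = 30 and 10). Tnfsf9, the ligand of Tnfrsf9, averaged 10.2 ± 5.4 CPM in tissue Treg and 4.21 ± 1.35 CPM in lymphoid Treg (SD, n = 18 and 9). Tnfsf8, the ligand of Tnfrsf8, averaged 78.3 ± 62.5 CPM in Treg and 102 ± 57 CPM in Tconv. Tnf, which binds both TNF receptors, averaged 24.2 ± 17.8 CPM in Treg and 33.6 ± 27.3 CPM in Tconv. These are levels beside the report's tests, and most of these ligands are also made by cells that were not sorted here.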
